A study of Oryza sativa with 36 samples.

Results

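The 8 genes described here encode dehydrins, other late embryogenesis abundant (LEA) proteins and the SALT lectin of rice. They were taken by locus identifier from the 38978 genes of the count table, without use of any measured value. The dehydrins among them are RAB16A (Os11g0454300), RAB16B (Os11g0454200), RAB16C (Os11g0454000) and RAB16D (Os11g0453900) on chromosome 11, and the dehydrin Os02g0669100 on chromosome 2. LEA3 (Os05g0542500, chromosome 5) and WSI18 (Os01g0705200, chromosome 1) encode LEA proteins of another class, and SALT (Os01g0348900, chromosome 1) encodes a lectin.

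The samples were leaf sheaths of rice seedlings, sequenced as 36 RNA libraries in 12 groups of 3. The lines were the near isogenic lines (NILs) B14 with BPH14, B15 with BPH15 and B1415 with both resistance genes, and their recurrent parent RP, the indica cultivar 'Wushansimiao', which carries neither introgression and was the background of all NILs. Plants were not infested (B14_0, B15_0, B1415_0, RP_0) or carried 8 nymphs of the brown planthopper (BPH) per seedling, and sheaths were pooled over an early stage (3, 6 and 12 h: B14_early, B15_early, B1415_early, RP_early) or a late stage (24, 48 and 72 h: B14_late, B15_late, B1415_late, RP_late). A replicate held 15 seedlings, so an early or late library mixes plants of several feeding times, and p-values measure the spread between such pools.

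BPH feeds on phloem sap. LEA proteins are very hydrophilic proteins that build up when seeds dry and when leaves or roots lose water, and they are thought to protect membranes and other proteins. Dehydrins are 1 class of them, and the RAB16 genes are named for their response to abscisic acid (ABA), the hormone of water shortage. WSI18 is named for its induction by water stress, and SALT, a mannose-binding lectin of the jacalin type, was first described in the sheaths and roots of rice under salt. In the RefSeq gene table of rice (assembly ASM3414082v1), RAB16D, RAB16C, RAB16B and RAB21, another name of RAB16A, are 4 consecutive protein-coding genes on chromosome 11. Because these genes resemble each other in sequence, reads may have been divided among them unevenly, and the setting for reads that match several genes was not given in the sources used here.

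Library totals ran from 10601967 (RP_late-2) to 18692187 counts, so that 3 counts, taken as the floor, equal 0.150 to 0.278 CPM, the unit of levels below, in which counts are scaled to library size. In 7 libraries the closest other library lay outside their own group, and the gap was widest in the following 3. B14_0-3 correlated best with an early library of B14 (Spearman's rho 0.971 over genes) and no better than 0.962 with its own group. B15_late-3, as labelled, had its nearest profile in B1415_late-2 (0.991, against at most 0.984 within its group), and B1415_late-3 had its nearest in B15_late-1 (0.990, against at most 0.983). B15_late-1 was in turn closest to B1415_late-3 (0.990, against at most 0.986 within its group), and for B14_early-3, B15_early-1 and B1415_late-2 the 2 values were nearly equal. Labels were kept as deposited, and calls that changed without B14_0-3, B15_late-3 or B1415_late-3 are given with and without them. CPM are further scaled by edgeR's TMM factors. A gene was called, and is said to have risen or fallen, at an adjusted p below 0.05 (edgeR's quasi-likelihood test, Benjamini-Hochberg over all genes tested) with more than a 2-fold change.

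RAB16A rose at the late stage in every line. It had 82.1, 83.3 and 95.2 CPM in B14_late, against 3.998, 2.92 and 5.95 CPM in B14_0, and 34.2, 26.0 and 26.2 CPM in RP_late, against 0.872, 0.704 and 1.32 CPM in RP_0. In both lines all late libraries lay far above the non-infested ones, by a log2 fold change of 4.39 (SE 0.28, edgeR adjusted p = 0.00012) in B14 and 4.90 (SE 0.19, adjusted p = 9.4e-18) in RP. B15_late held 75.4, 28.8 and 2.72 CPM, against 0.704, 0.333 and 0.979 CPM in B15_0 (log2 fold change 5.75, SE 1.009, adjusted p = 0.00029). B1415_late held 2.39, 2.59 and 79.0 CPM, against 1.72, 1.22 and 1.14 CPM in B1415_0 (4.35, SE 1.28, adjusted p = 0.023). The 3 B15_late libraries were spread widely, and in B1415_late the third library was set far apart from the others. In B15 the log2 fold change was 4.52 without B15_late-1 and 6.31 without B15_late-3, and the call held in both. Without the library labelled B1415_late-3 the log2 fold change in B1415 was 0.87 (adjusted p = 0.040, under the 2-fold limit), and the call was also lost when any 1 of the B1415_0 libraries was left out (adjusted p 0.068 to 0.084). Here as in any bulk sample, more RNA per cell and more cells that express the gene cannot be told apart.

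RAB16B and RAB16C rose in B14, B15 and RP but were not called in B1415. RAB16B had 5.63, 6.58 and 8.24 CPM in B14_late, against 0.901, 0.974 and 1.25 CPM in B14_0, and 2.20, 2.69 and 1.62 CPM in RP_late, against 0.604, 0.320 and 0.180 CPM in RP_0. It rose by 2.76 (SE 0.29, adjusted p = 0.00054) and 2.56 (SE 0.41, adjusted p = 6.8e-06) on the log2 scale, with no overlap between groups. RAB16C had 4.51, 4.58 and 5.35 CPM in B14_late, against 0.901, 0.974 and 0.939 CPM in B14_0, and 2.03, 1.58 and 1.91 CPM in RP_late, against 0.537, 0.640 and 0.480 CPM in RP_0. Its log2 fold changes were 2.40 (SE 0.25) in B14 and 1.75 (SE 0.36) in RP, with edgeR adjusted p of 0.00051 and 0.00015. In RP both genes passed the filter on low counts through RP_late. RP_0 held 9, 5 and 3 counts of RAB16B and 8, 10 and 8 counts of RAB16C. The filter thus favoured a call up in RP. In B15 both genes rose by about the same amount with a wide error, RAB16B by 2.02 (SE 0.72, adjusted p = 0.026) and RAB16C by 2.19 (SE 0.84, adjusted p = 0.037), and the groups overlapped. Their B15 calls rested on B15_late-1, without which the log2 fold changes were 0.82 (adjusted p = 0.30) and 0.87 (adjusted p = 0.38). They were also not made by DESeq2 (adjusted p = 0.077 and 0.13), and were lost without B15_0-1 or B15_0-2, at adjusted p between 0.061 and 0.13, and that of RAB16B without B15_0-3 (adjusted p = 0.070). In B1415, RAB16C was not called (1.89, SE 1.09, adjusted p = 0.20) and RAB16B did not pass the filter on low counts. B1415_late-3 alone held 7.71 CPM of RAB16B and 6.62 CPM of RAB16C, and the other B1415_late libraries lay between 0.179 and 0.423 CPM. In B1415_0 the levels were 0.287, 0.288 and 0.334 CPM for RAB16B and 0.344, 1.01 and 0.602 CPM for RAB16C, so that B1415_late-1 and B1415_late-2 lay below all B1415_0 libraries for RAB16C.

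RAB16D was close to the floor outside the late stage, with 0 counts in 15 of the 36 libraries. It had 33, 35 and 64 counts in B14_late, against 6, 3 and 2 counts in B14_0, a log2 fold change of 3.57 (SE 0.44, adjusted p = 0.0011). The gene passed the filter there through B14_late, so the filter favoured a call up. The B15_late libraries held 62, 24 and 1 counts and those of B15_0 held 0, 0 and 0. Against a floor of 3 counts over the group, 0.0777 CPM, RAB16D was at least 24.6-fold higher in B15_late than in B15_0, and at least 39.8-fold higher without B15_late-3. It did not pass the filter in B15 with all libraries. Without B15_late-3 it passed through its late libraries alone and was called, an outcome that the filter fixes. RP_late held 11, 9 and 5 counts, against 2, 0 and 0 counts in RP_0, and B1415_late held 1, 0 and 66 counts, against 0, 0 and 1 counts in B1415_0. RAB16D did not pass the filter in either line.

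LEA3 and WSI18, the members of the other LEA class, rose late in every line in which they were tested. LEA3 had 22.1, 23.2 and 25.1 CPM in B14_late, against 3.55, 4.94 and 5.87 CPM in B14_0, and 8.40, 5.85 and 6.61 CPM in RP_late, against 1.14, 0.704 and 1.14 CPM in RP_0. It rose by 2.34 (SE 0.23, adjusted p = 0.00046) in B14 and by 2.83 (SE 0.24, adjusted p = 1.3e-10) in RP. In B15 its rise was 5.60 (SE 1.03, adjusted p = 0.00042), with 26.6, 7.23 and 1.42 CPM in B15_late, against 0.176, 0.200 and 0.326 CPM in B15_0. The B15_0 libraries rest on 2, 3 and 4 counts, and all 3 late libraries lay above them. LEA3 passed the filter in B15 through B15_late, so the filter favoured a call up. The log2 fold change was 4.10 without B15_late-1 and 6.14 without B15_late-3, and the call held in both. B1415_late held 1.31, 1.22 and 26.6 CPM, against 0.516, 0.288 and 1.07 CPM in B1415_0 (3.95, SE 1.20, adjusted p = 0.027). That call was lost without B1415_late-3 (1.02, adjusted p = 0.12) and without any 1 of the B1415_0 libraries (adjusted p 0.059 to 0.098).

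WSI18 had 16.001, 18.6 and 21.7 CPM in B14_late, against 0.732, 1.30 and 1.25 CPM in B14_0, a log2 fold change of 4.15 (SE 0.29, adjusted p = 0.00016). In RP it rose by 2.30 (SE 0.36, adjusted p = 4.9e-06), with 2.62, 1.86 and 2.94 CPM in RP_late, against 0.335, 0.448 and 0.720 CPM in RP_0. WSI18 passed the filter there through RP_late, with 5, 7 and 12 counts in RP_0, so the filter favoured a call up. B14_late was the highest group for WSI18, and its lowest library lay above the highest library of every other group, 8.04 CPM. B15_late held 8.04, 2.04 and 0.567 CPM, against 0.528, 0.533 and 0.816 CPM in B15_0 (2.496, SE 0.77, adjusted p = 0.012). The B15 call was lost without B15_late-1 (0.96, adjusted p = 0.18) or B15_0-2 (2.36, adjusted p = 0.058). In B1415 the gene did not pass the filter, with 5, 6 and 129 counts in B1415_late and 0, 0 and 3 counts in B1415_0.

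SALT also rose in every line. Its levels were 1118, 1125 and 1439 CPM in B14_late, against 34.7, 29.4 and 60.6 CPM in B14_0, and 747, 369 and 650 CPM in RP_late, against 74.3, 62.5 and 66.8 CPM in RP_0. The rise was 4.92 (SE 0.35, adjusted p = 0.00017) in B14 and 3.14 (SE 0.15, adjusted p = 1.1e-15) in RP on the log2 scale. B15_late held 1123, 528 and 90.1 CPM, against 55.2, 43.0 and 54.2 CPM in B15_0 (3.51, SE 0.60, adjusted p = 0.00025), and B1415_late held 83.5, 98.4 and 1376 CPM, against 26.8, 31.8 and 25.4 CPM in B1415_0 (4.23, SE 0.96, adjusted p = 0.0070). In B15 the value was 2.58 without B15_late-1 and 4.01 without B15_late-3, and the call held in both. Among the members called up in B1415_late/B1415_0, SALT alone was still called without the library labelled B1415_late-3, at a log2 fold change of 1.71 (SE 0.12, adjusted p = 1.9e-06). Every late library of the series, the lowest at 83.5 CPM, lay above every non-infested library, the highest at 74.3 CPM.

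**Figure D1:**
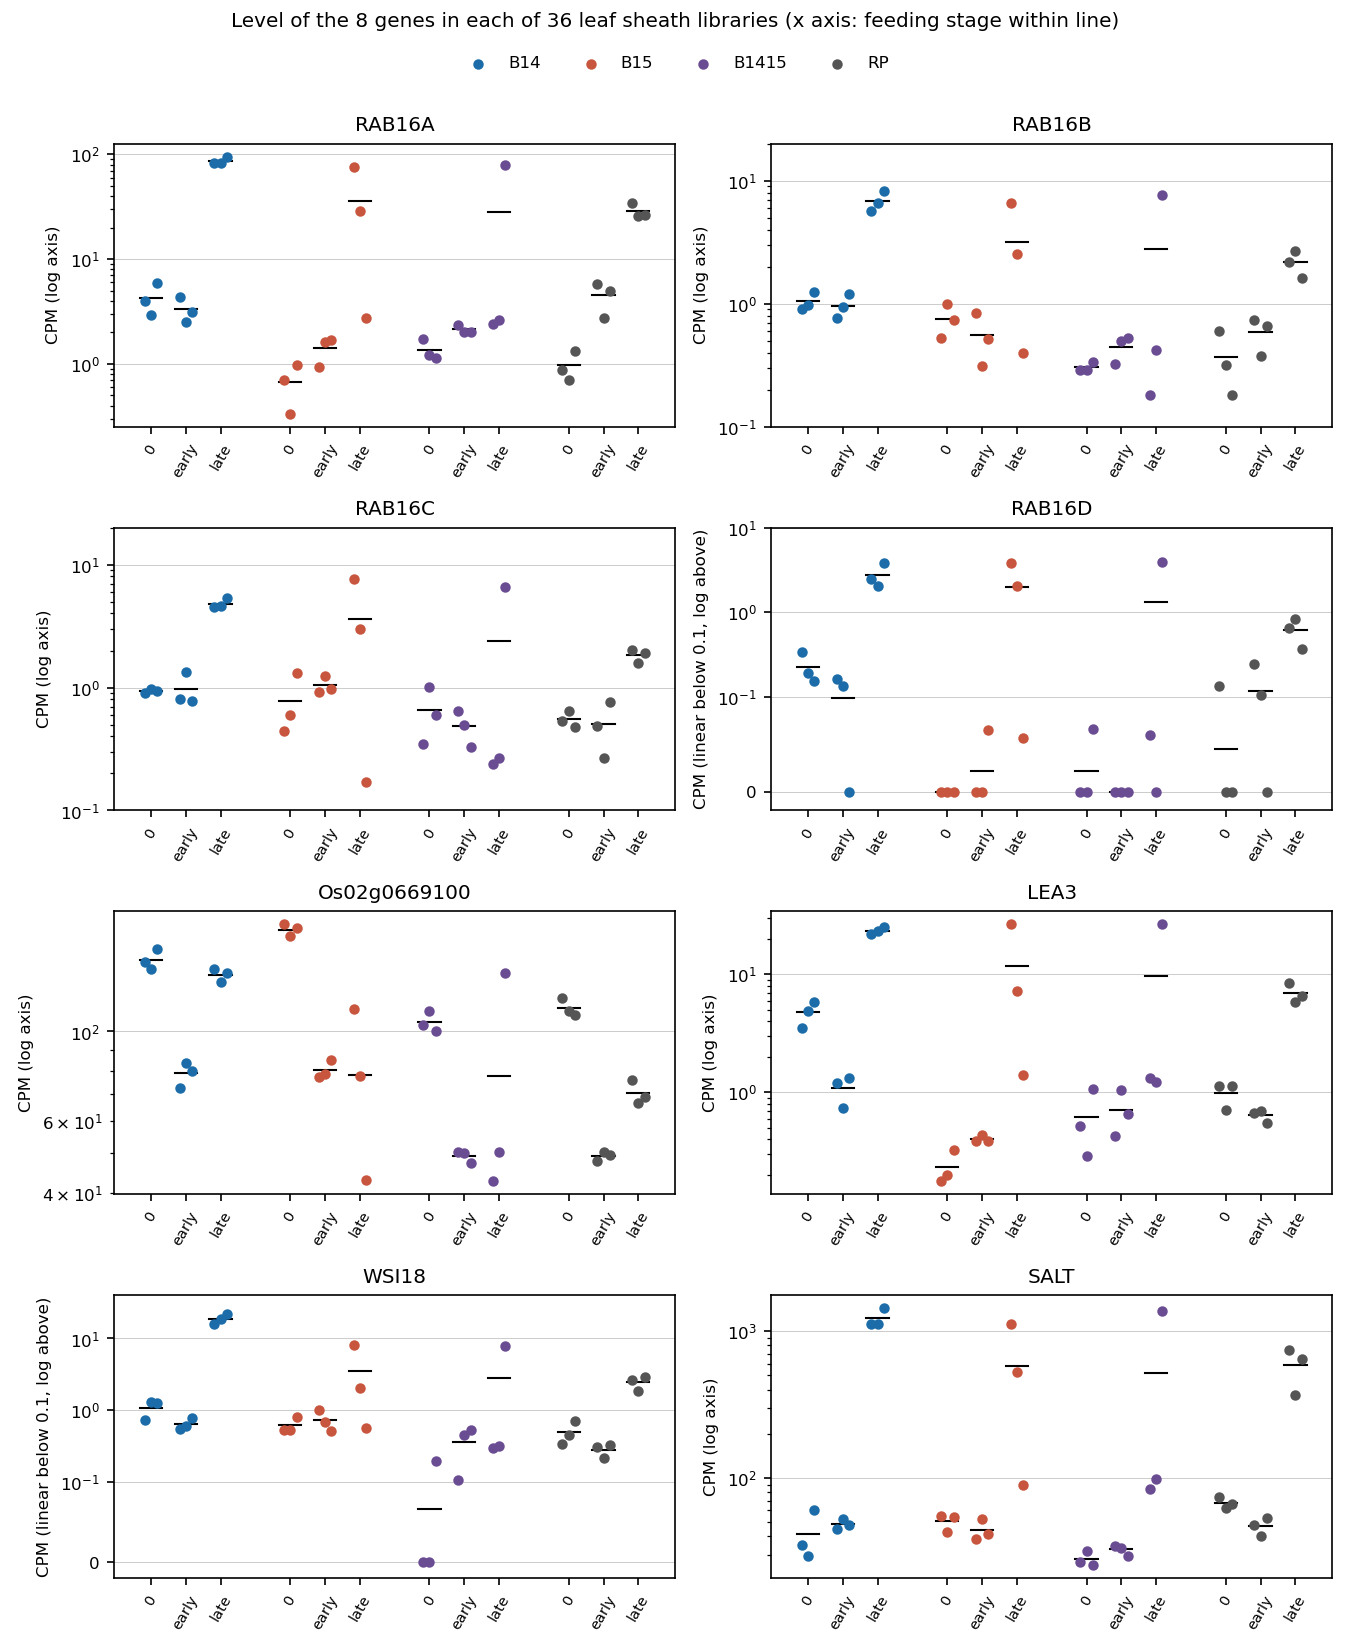
CPM of each gene in each library (points, coloured by line) with the group mean (black bar), by feeding stage within line, on log axes that are linear below 0.1 CPM for RAB16D and WSI18. RAB16A to RAB16D, LEA3, WSI18 and SALT have their highest libraries at the late stage and Os02g0669100 in the non-infested plants, and the late libraries of B15 and B1415 are spread more widely than those of B14 and RP.

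Counted over the members, 8 were tested and 7 called up in B14_late/B14_0, where 12.6% of all tested genes were called up. In B15_late/B15_0, 7 were tested, 6 of them were called up (13.4% of all genes) and 1 was called down (13.9% of all genes). In B1415_late/B1415_0, 5 were tested and 3 called up (6.73% of all genes), and in RP_late/RP_0, 7 were tested and 6 called up (9.70% of all genes). Members that passed the filter only through a high late group had to differ, so these counts describe the members and say little about the rest. Such members included RAB16D in B14, RAB16A and LEA3 in B15, LEA3 in B1415, and RAB16B, RAB16C and WSI18 in RP. Over all 8 members without the filter on low counts, the median log2 fold change was 3.16 in B14, 3.00 in B15, 4.08 in B1415 and 2.69 in RP, and the medians over all genes lay between 0.00144 and 0.0744. The B1415 median rests on B1415_late-3. Over the 7 members other than RAB16D, which was then under the floor in both groups, it was 0.871 without that library and 3.94 with it. Without B15_late-3, 8 members were tested in B15 and 7 called up (14.1% of all genes), RAB16D among them through the filter. Without B1415_late-3, 4 members were tested in B1415, of which SALT was called up (4.93% of all genes) and Os02g0669100 was called down (3.41% of all genes).

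**Figure D2:**
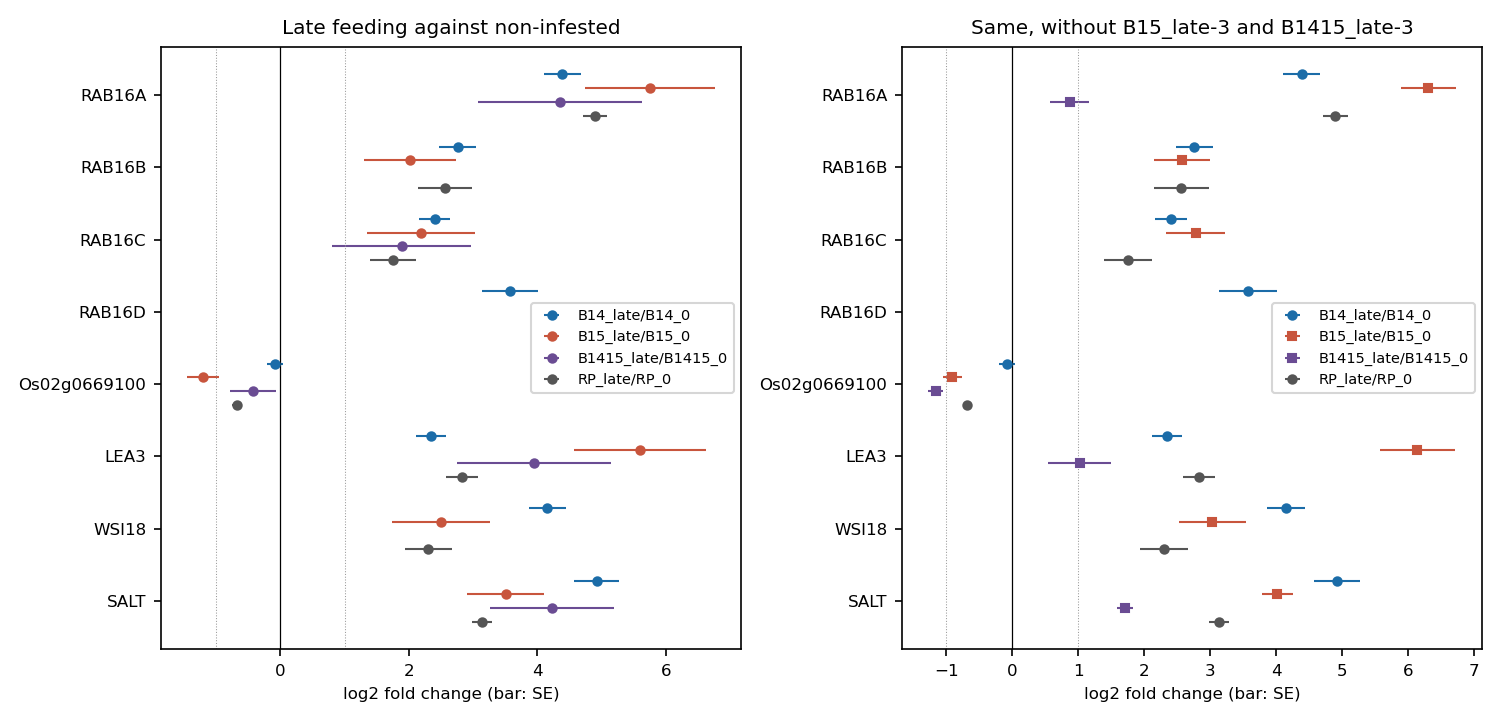
Log2 fold change of late against non-infested plants of the same line (points) with its SE (bars) for the members tested, with all libraries (left) and without B15_late-3 and B1415_late-3 (right, squares). Dotted lines mark the 2-fold limit, and RAB16D in B15 is left out because B15_0 had no count. For RAB16A the B1415 value is 4.35 on the left and 0.87 on the right.

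The 12 late libraries took nearly the same order for every member. The 5 highest libraries were B14_late-1, B14_late-2, B14_late-3, B15_late-1 and B1415_late-3 for 8 of 8 genes, and the 3 lowest were B15_late-3, B1415_late-1 and B1415_late-2 for 8 of 8 genes. The 4 libraries between were B15_late-2 and those of RP_late. For SALT these ranges were 1118 to 1439 CPM, 83.5 to 98.4 CPM and 369 to 747 CPM. For RAB16A they were 75.4 to 95.2 CPM, 2.39 to 2.72 CPM and 26.0 to 34.2 CPM. The order is a description of these libraries, and the dehydrin Os02g0669100, which did not rise with feeding, was split in the same way. Whether other genes took this order was not counted. Over all genes too, the profiles of B15_late-3 and B1415_late-3 were nearest to late libraries of the other line, so the order is not shown to be particular to these members. The library labelled B15_late-3 thus had levels near those of B1415_late-1 and B1415_late-2, whereas B1415_late-3 had levels near those of B15_late-1. The part of their labels in the late results of B15 and B1415 was not tested.

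**Figure D3:**
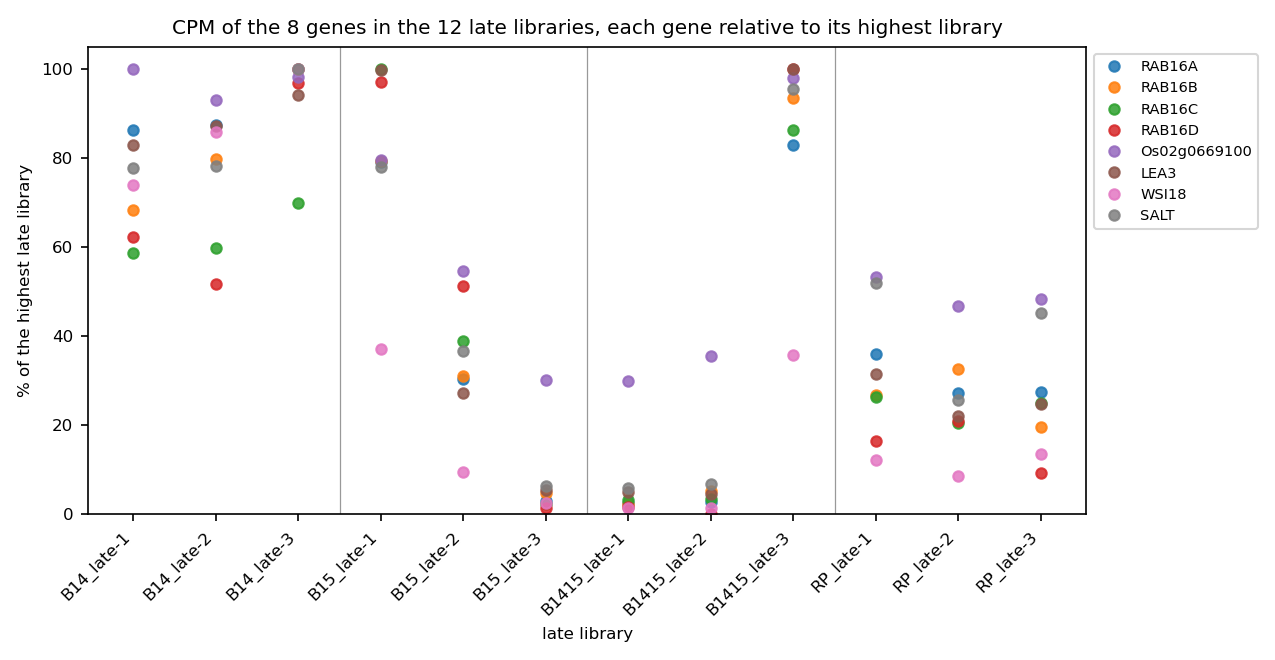
CPM of the 8 genes in the 12 late libraries, each as a percentage of the gene's highest late library. B15_late-3, B1415_late-1 and B1415_late-2 are lowest for every gene, and B1415_late-3 stands with B14_late and B15_late-1 except for WSI18, which is highest in B14_late.

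The dehydrin Os02g0669100 followed another course. It was highest before feeding and fell at the early stage in B15, B1415 and RP. Before feeding it had 149, 142.6 and 160 CPM in B14_0, 184, 172 and 180 CPM in B15_0, 104, 112 and 99.99 CPM in B1415_0 and 121, 112 and 110.0 CPM in RP_0. The early libraries held 72.7, 83.8 and 80.1 CPM in B14, 77.1, 78.5 and 85.03 CPM in B15, 50.5, 50.1 and 47.5 CPM in B1415 and 47.9, 50.4 and 49.6 CPM in RP. All 12 early libraries, at most 85.03 CPM, lay below all 12 non-infested ones, at least 99.99 CPM. The fall was -1.16 (SE 0.09, adjusted p = 2.0e-07) in B15, -1.07 (SE 0.08, adjusted p = 7.9e-08) in B1415 and -1.20 (SE 0.07, adjusted p = 1.5e-12) in RP on the log2 scale. In B14 the log2 fold change was -0.92 (SE 0.12, adjusted p = 0.018), which is under the 2-fold limit.

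At the late stage no line had Os02g0669100 above its non-infested level by the test. B14_late held 142, 132 and 140 CPM, against 149, 142.6 and 160 CPM in B14_0, so that the groups did not overlap but the log2 fold change was -0.08 (SE 0.12, adjusted p = 0.64). RP_late held 75.8, 66.4 and 68.8 CPM, against 121, 112 and 110.0 CPM in RP_0 (-0.68, SE 0.07, adjusted p = 8.9e-09, under the 2-fold limit). It fell in B15 (113, 77.6 and 42.9 CPM in B15_late, against 184, 172 and 180 CPM in B15_0) by 1.20 on the log2 scale (SE 0.24, adjusted p = 0.00083), and without B15_late-3 the value was -0.91 (adjusted p = 5.1e-05), again under the limit. B1415_late held 42.7, 50.4 and 139 CPM, against 104, 112 and 99.99 CPM in B1415_0 (-0.43, SE 0.36, adjusted p = 0.37). Without B1415_late-3 it was called down, at -1.16 (SE 0.11, adjusted p = 1.6e-05).

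**Figure D4:**
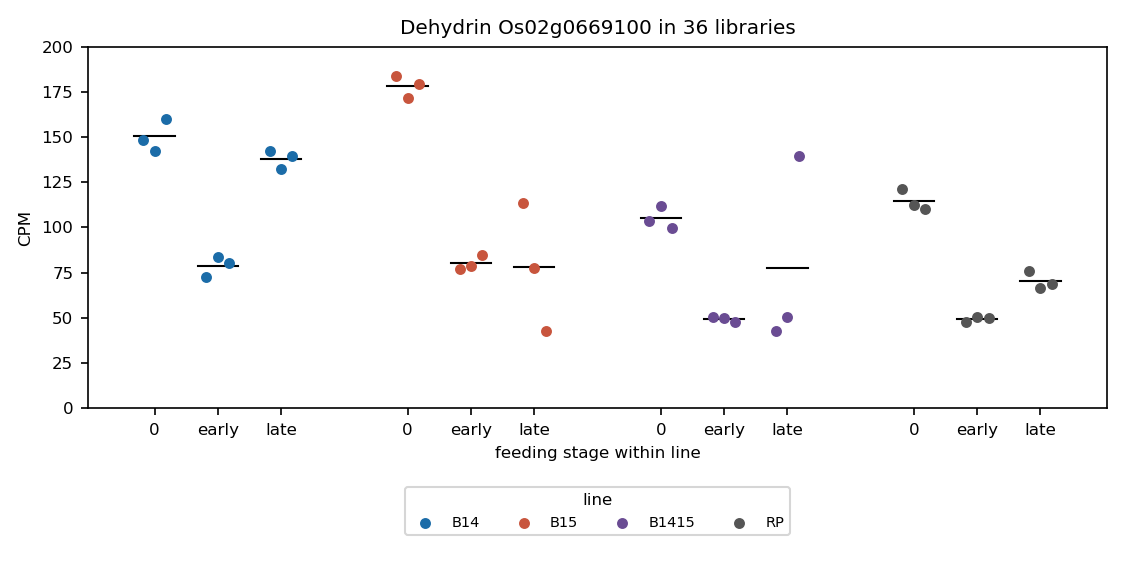
CPM of Os02g0669100 in each library (points, coloured by line) and the group mean (bar), by feeding stage within line, on a linear axis from 0. Every early library lies below every non-infested library, and the late libraries of B14 lie between 132 and 142 CPM.

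At the early stage 2 further calls were made among the other members tested, and in B15, B1415 and RP 4 of the 8 members were not tested. RAB16A rose in RP, with 5.79, 2.74 and 4.998 CPM in RP_early, against 0.872, 0.704 and 1.32 CPM in RP_0 (log2 fold change 2.21, SE 0.30, adjusted p = 2.0e-06), and the groups did not overlap. It was 1 of 4 members tested there, where 3.94% of all genes were called up and 1.87% down, the second member called being Os02g0669100. RAB16A was not called in B14_early/B14_0 (-0.34, SE 0.35, adjusted p = 0.74), B15_early/B15_0 (1.11, SE 0.44, adjusted p = 0.074) or B1415_early/B1415_0 (0.65, SE 0.27, adjusted p = 0.092). LEA3 fell in B14, with 1.19, 0.741 and 1.31 CPM in B14_early, against 3.55, 4.94 and 5.87 CPM in B14_0 (-2.11, SE 0.34, adjusted p = 0.035). It was the only 1 of 7 members called there, among 0.151% of all genes called down. The early libraries of the other lines held 0.385 to 1.05 CPM, and all B14_early libraries lay above those of RP_early, 0.549 to 0.698 CPM. Without B14_0-3 its adjusted p was 0.00071 at a log2 fold change of -1.91, and the call was lost without B14_0-1, B14_0-2 or any 1 of the B14_early libraries (adjusted p 0.078 to 0.21, log2 fold changes -2.29 to -1.90). In B15_early/B15_0 and B1415_early/B1415_0, 4 members were tested each and only Os02g0669100 was called, down, as were 1.09% and 0.973% of all genes. SALT was lower in RP_early (47.8, 39.96 and 53.4 CPM) than in RP_0 (74.3, 62.5 and 66.8 CPM) by a log2 fold change of -0.51 (SE 0.09, adjusted p = 5.8e-05), under the 2-fold limit.

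The NILs were next compared with RP before feeding. In B14_0/RP_0, 0 of 7 members tested were called, as against 0.0933% of all genes (at an unadjusted p below 0.05 with the 2-fold limit 4, RAB16A, RAB16B, LEA3 and WSI18, against 1.96% of all genes, and by DESeq2 2, RAB16A and LEA3, against 0.577%). LEA3 had 3.55, 4.94 and 5.87 CPM in B14_0, against 1.14, 0.704 and 1.14 CPM in RP_0 (log2 fold change 2.21, SE 0.31, adjusted p = 0.096). RAB16A had 3.998, 2.92 and 5.95 CPM in B14_0, against 0.872, 0.704 and 1.32 CPM in RP_0 (2.09, SE 0.37, adjusted p = 0.20). For these and all other members but SALT, 7 of 8, every B14_0 library lay above every RP_0 library, and for SALT every one lay below. How many of all genes separated in this way was not counted, so this describes the members only. The median over the 8 members without the filter was 1.25, against 0.0124 over all genes. Without B14_0-3, 3 of 7 members were called (1.04% of all genes): LEA3 at 2.05 (adjusted p = 3.3e-06), RAB16A at 1.81 (adjusted p = 7.0e-05) and SALT at -1.10 (adjusted p = 1.9e-12). SALT had 34.7, 29.4 and, in the library left out, 60.6 CPM in B14_0, against 74.3, 62.5 and 66.8 CPM in RP_0.

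In B15_0/RP_0, LEA3 was the 1 of 4 members tested that was called, down (-2.06, SE 0.49, adjusted p = 0.0010), in a comparison where 24.3% of all genes were called. LEA3 held 2, 3 and 4 counts in B15_0, near the floor, against 17, 11 and 19 counts in RP_0. It passed the filter through RP_0 alone, so the filter favoured a call down. Os02g0669100 was higher in B15_0 (184, 172 and 180 CPM) than in RP_0 (121, 112 and 110.0 CPM) by 0.63 (SE 0.07, adjusted p = 5.0e-07), under the 2-fold limit. In B1415_0/RP_0, SALT was the 1 of 4 members called (2.43% of all genes), with 26.8, 31.8 and 25.4 CPM in B1415_0, against 74.3, 62.5 and 66.8 CPM in RP_0 (-1.26, SE 0.10, adjusted p = 1.9e-06). All 3 NILs were compared with the same RP libraries, so these comparisons are not independent of each other.

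At the early stage 0 of 6 members tested were called in B14_early/RP_early, where 4.82% of all genes were (by DESeq2, with 4.53% of all genes, and at an unadjusted p below 0.05 with the same limit, with 5.30%, also 0). In this and all other counts by DESeq2, a gene without a DESeq2 adjusted p counted as not called. In B15_early/RP_early 2 of 5 were called (13.7% of all genes). RAB16A had 0.923, 1.62 and 1.69 CPM in B15_early, against 5.79, 2.74 and 4.998 CPM in RP_early (-1.67, SE 0.30, adjusted p = 0.00011). RAB16C passed the filter through B15_early. It was higher there, with 0.923, 1.25 and 0.977 CPM in B15_early, against 0.488, 0.269 and 0.769 CPM in RP_early (1.02, SE 0.43, adjusted p = 0.048). That call at 5 to 20 counts per library was not made by DESeq2 (adjusted p = 0.10) and was lost without B15_early-2, B15_early-3, RP_early-1 or RP_early-2 (adjusted p 0.080 to 0.21). In B1415_early/RP_early, RAB16A was the 1 of 4 members called (4.36% of all genes), with 2.35, 2.00 and 2.03 CPM in B1415_early (-1.05, SE 0.25, adjusted p = 0.0060). It fell under the 2-fold limit without B1415_early-2, RP_early-1 or RP_early-3 (log2 fold changes -0.998 to -0.83, adjusted p 0.031 to 0.044).

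At the late stage B14 had the higher levels, as it had before feeding for every member but SALT, though none was called there. In B14_late/RP_late all 8 members were tested and 7 were called, all up, where 3.98% of all genes were called. The log2 fold change was 2.92 (SE 0.20, adjusted p = 2.3e-05) for WSI18, 2.20 (SE 0.39, adjusted p = 0.0050) for RAB16D, 1.76 (SE 0.15, adjusted p = 9.3e-05) for LEA3 and 1.69 (SE 0.24, adjusted p = 0.0019) for RAB16B. It was 1.61 (SE 0.12) for RAB16A, 1.39 (SE 0.22) for RAB16C and 1.08 (SE 0.21) for SALT, with edgeR adjusted p of 5.0e-05, 0.0031 and 0.0091. RAB16D passed the filter through B14_late, with 33, 35 and 64 counts, against 11, 9 and 5 counts in RP_late. For that gene the filter thus favoured a call up. In 1 fit of all 36 libraries the log2 fold changes of the 7 were 1.06 to 2.91, but WSI18 alone was called and the adjusted p of the others was 0.11 to 0.33. For all 8 genes the lowest library of B14_late lay above the highest of RP_late, and the share of all genes for which this held was not counted. Before feeding, the B14_0 means were 4.44 (RAB16A), 4.81 (LEA3) and 5.14 (RAB16D, near the floor) times those of RP_0. The late ratios of these genes were smaller, at 3.02, 3.37 and 4.51. For the other members the late ratio was the larger, as for WSI18 at 7.59 against 2.18 before feeding. Os02g0669100 stood just under the 2-fold limit (0.99, SE 0.09, adjusted p = 0.00011) and passed it without B14_late-2 or RP_late-1 (1.02 and 1.04). SALT fell under it without B14_late-3 or RP_late-2 (0.94 and 0.83, adjusted p 0.040 and 0.016). RP_late-2, the shallowest library, had the lowest SALT level of its group at 369 CPM.

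In B15_late/RP_late and B1415_late/RP_late 0 of 8 members were called, where 0.525% and 0.0330% of all genes were, and at an unadjusted p below 0.05 with the 2-fold limit (2.98% and 2.21% of all genes) or by DESeq2 (0.975% and 0.470%) the count was also 0. The DESeq2 count may include members without an adjusted p, so no conclusion is drawn from it. The groups overlapped for all 8 genes in both comparisons, and the SE ran up to 1.23. For SALT the difference was -0.01 (SE 0.61) in B15 and -0.17 (SE 0.87) in B1415. Without the library labelled B1415_late-3, 7 members were tested in B1415_late/RP_late and 6 were called, all down (3.22% of all genes called). In B1415_late-1 and B1415_late-2, RAB16B held 3 and 8 counts, RAB16C 4 and 5 and WSI18 5 and 6, all under the minimum count of 10. These genes passed the filter through RP_late alone, so the filter favoured a lower level in B1415. The log2 fold changes were then -3.52 for RAB16A (SE 0.18, adjusted p = 2.8e-08), -2.97 for WSI18, -2.82 for RAB16C, -2.76 for RAB16B, -2.68 for SALT and -2.45 for LEA3, with adjusted p of at most 0.0017, and -0.58 for Os02g0669100. Without B15_late-3, 1 of 8 members was called in B15_late/RP_late (0.936% of all genes), RAB16D at 2.29 (SE 0.44, adjusted p = 0.023). RAB16D passed the filter through B15_late-1 and B15_late-2, with 62 and 24 counts, against 11, 9 and 5 counts in RP_late. The filter thus favoured a call up. Without B15_late-1 instead, 0 of 8 were called, RAB16D was at 0.64 and the other members lay between -1.01 (WSI18) and -0.22 (Os02g0669100), with SALT and RAB16A both at -0.92.

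**Figure D5:**
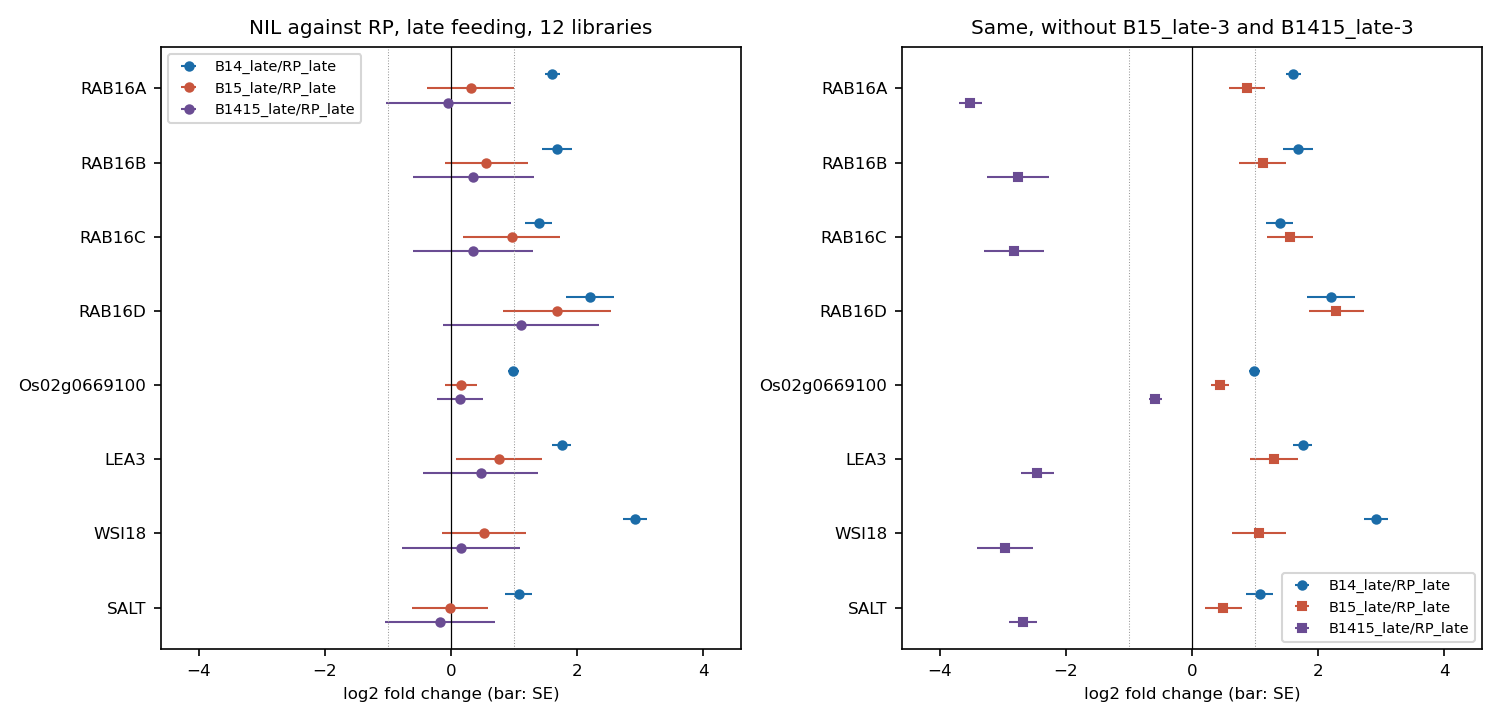
Log2 fold change of each NIL against RP at the late stage (points) with its SE (bars), with all libraries (left) and without B15_late-3 and B1415_late-3 (right, squares). B14_late is above RP_late for every gene, and the B1415 values, which lie around 0 on the left, are between -3.52 and -0.58 on the right.

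An interaction of line and stage was fitted to ask if a NIL responded to feeding otherwise than RP. With all libraries no member was called in any of the 6 interactions, and other rules called a few of the gene and interaction pairs. DESeq2 called RAB16A in the early interaction of B14 (0.158% of all genes), and WSI18 and SALT in the late one (1.85% of all genes). An unadjusted p below 0.05 with the 2-fold limit called these, RAB16A in the early interaction of B1415 (1.70% of all genes) and LEA3 in the early one of B14, where it called 1.58% of all genes, as against 6.84% in the late one of B14. The early interactions called 0.0121% of all genes in B14, 0.749% in B15 and 0.160% in B1415, and the late ones 0.211%, 16.9% and 0.0239%. The nearest was SALT in B1415 at the early stage, whose log2 change relative to that of RP was 0.75 (SE 0.15, adjusted p = 0.020). In B14 at the late stage RAB16A and LEA3 had negative differences in every fit with 1 library left out. They ran from -0.81 to -0.22 for RAB16A and from -0.67 to -0.29 for LEA3, and neither was called. For WSI18 and SALT in B14 at the late stage the differences were 1.85 (SE 0.46, adjusted p = 0.097) and 1.79 (SE 0.39, adjusted p = 0.080). Both were called without B14_0-3, at 1.95 (adjusted p = 0.034) and 2.16 (adjusted p = 0.0010), 2 of 8 members where 1.59% of all genes were called. In the early interaction of B14 without that library, 2 of 7 members were called (1.75% of all genes), RAB16A at -2.26 (adjusted p = 0.0023) and SALT at 1.10 (adjusted p = 5.7e-05).

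The late interactions of B15 and B1415 changed with the libraries whose profiles went against their labels. Without B15_late-3 LEA3 was called in B15 (3.31, SE 0.81, adjusted p = 0.0023), 1 of 8 members where 16% of all genes were called. The LEA3 value rests on 2, 3 and 4 counts in B15_0. It ran from 1.23 to 3.31 with 1 library left out and was called in 1 of these 12 fits. Without B1415_late-3, 3 of 7 members were called down in B1415 (1.31% of all genes), namely RAB16A at -4.05 (adjusted p = 5.2e-06), RAB16C at -3.06 (adjusted p = 0.013) and SALT at -1.44 (adjusted p = 0.0032). The RAB16C value rests on 4 and 5 counts in B1415_late-1 and B1415_late-2. With all libraries these 3 differences were -0.55 (SE 1.73), 0.13 (SE 1.36) and 1.09 (SE 1.008).

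The members were also compared by their course over the 12 group means of log2 CPM, among 26455 genes. RAB16A, RAB16B, RAB16C, RAB16D, LEA3, WSI18 and SALT correlated with each other at Pearson's r from 0.833 to 0.959, and Os02g0669100 correlated with them at -0.127 to 0.268. These points share libraries and the rise at the late stage. Many other genes lay closer. By likeness to RAB16A, RAB16D ranked 54, LEA3 297, RAB16B 481, SALT 688, RAB16C 1534 and WSI18 1649. Spearman's rho of RAB16A with these members over the same means ran from 0.601 (RAB16C) to 0.916 (RAB16D). A shared course is thus not shown to be particular to the members. The genes most like RAB16A were Os03g0743500 (0.979), Os02g0218700 (0.978) and Os03g0661600 (0.974), and those most like SALT were Os02g0186100 (0.982), Os01g0187600 (0.979) and Os07g0684800 (0.975). For LEA3 they were Os11g0451700 (0.984), Os03g0168100 (0.981) and Os06g0674000 (0.975), and for WSI18 Os07g0638400 (0.974), Os03g0820500 (0.969) and Os01g0946600 (0.966). Os03g0820500 was also nearest to RAB16C (0.974), followed by Os04g0589800 (0.967) and Os03g0792800 (0.966). RAB16B was nearest to Os03g0286900 (0.984), Os04g0589800 (0.981) and Os02g0168100 (0.980), and RAB16D to Os03g0230300 (0.985), Os06g0324400 (0.979) and Os05g0151200 (0.977). For Os02g0669100 the nearest were Os05g0494600 (0.967), Os04g0678400 (0.959) and Os07g0154100 (0.956). They are given by locus identifier only.

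A further 4 LEA genes and 1 lectin gene carry an annotation in the study's tables of differentially expressed genes, so they were chosen on these samples. OsLEA9 (Os01g0314800) averaged 170 ± 24.9 CPM in B14_late and 79.0 ± 41.3 CPM in B14_0, and 120 ± 22.8 CPM in RP_late and 33.4 ± 1.94 CPM in RP_0 (SD, n = 3 each). It was called up late in B14 (1.13), B1415 (1.85) and RP (1.87), with 0.67 in B15. Os01g0109000, similar to LEA proteins, was called up in B14 (1.07) and B1415 (1.28). OsLEA33 (Os06g0341300) was tested late in B14 only and called up there (2.04), and Lea14A (Os01g0225600) was called in no late comparison, with log2 fold changes from -0.93 to 0.39. OsJAC1 (Os12g0247700), a jacalin-type lectin gene like SALT, was called up at both stages in every line, by 3.07 to 3.36 early and 1.80 to 4.29 late. SALT was called in none of the early comparisons. OsJAC1 averaged 27.6 ± 1.499 CPM in B1415_early and 3.05 ± 0.0410 CPM in B1415_0 (SD, n = 3 each).

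Markers of tissue were read in the same libraries. LHCB (Os03g0592500), which encodes a chlorophyll-binding protein of green tissue, had 133 to 265 CPM in late, 234 to 521 CPM in early and 321 to 791 CPM in non-infested libraries. It fell late in B14 (-1.45), B15 (-1.72) and B1415 (-1.02), with -0.68 in RP. Of the 2 loci listed as green tissue markers, which carry no annotation here, Os12g0274700 had 1829 to 3775 CPM in late, 3404 to 6604 CPM in early and 2836 to 4823 CPM in non-infested libraries, and Os01g0600900 had 829 to 1858, 1234 to 3197 and 1182 to 4122 CPM in the same order. Early levels of Os12g0274700 lay partly above the non-infested range and those of LHCB did not. LHCB was chosen after its values were seen. The root locus of the marker list stayed at or below 0.384 CPM. Of 4 seed loci only Glua1 (Os01g0762500), a glutelin subunit of seed storage protein, carries an annotation here. It was called up at both stages in every line, with 6.29 to 20.9 CPM in late, 0.716 to 7.85 CPM in early and 0 to 1.41 CPM in non-infested libraries. It was also called down in B15_0/RP_0 and B1415_0/RP_0. The 3 other seed loci did not exceed their non-infested range late, with 3.66 to 7.06 CPM in late and 1.63 to 7.65 CPM in non-infested libraries for Os10g0400200, 0.0928 to 0.977 and 0 to 1.25 CPM for Os04g0546500, and 0 to 0.421 and 0 to 0.734 CPM for Os03g0699000. The part of Glua1 and LHCB in the changes of the members was not tested.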

How the data were processed

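The authors deposited 1 table of raw read counts per gene, not normalized, with 36 columns, each tied to a sample by its title. No column was left out. Per the methods, reads were aligned with HISAT2 (version 2.0.4 in the submitters' processing notes) to IRGSP 1.0 and counted with HTseq, and the strand setting is not given in the sources used here. Library kit, sequencer and 1 infestation time differ between methods and labels. The software was edgeR 4.0.16 under R 4.3.3. Each of 17 comparisons used a fit of its own 6 libraries (filterByExpr with a minimum count of 10, TMM, quasi-likelihood test, Benjamini-Hochberg over all genes), and 6 interactions were fitted on 12 libraries each. The SE was the log2 fold change divided by the square root of F. The median log2 fold changes of all tested genes lay between -0.0629 and 0.0524, so no scaling shift was corrected. The procedure was tested on simulated data. Floors cover counting error only.

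Same-numbered replicates did not deviate together in every pair of any comparison, so they were treated as unpaired. Members and lists were chosen with earlier results of these data known. Named were all members in every comparison and the 3 genes most like each member, and the part of the rule on related lists was not applied. The related genes and the LHCB marker were chosen after their values could be seen, from annotations in the study's tables. Of the listed related loci, ABA and stress genes among them, only OsJAC1 carries an annotation in the sources used here. The others were not reported, except that Os07g0154100 appears by identifier among the genes most like Os02g0669100. Alternatives were DESeq2 1.42.0 on the same genes, its size factors in edgeR, no filter, a replicate block, 1 fit of 36 libraries, other call rules, RP_0 as common baseline and libraries left out. No sequence is shown because no sequence table was used here, and coordinates are not given because the RefSeq table is of another assembly than the counts.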

Additional observations from a re-analysis of the deposited data

Results flagged for a closer look

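The response of SALT to early feeding differed between B1415 and RP by a log2 value of 0.75 (interaction, edgeR adjusted p = 0.020), a difference under the 2-fold limit used for calls. With 1 library left out the value ran from 0.65 to 0.85 and the edgeR adjusted p from 0.0013 to 0.072. SALT had 34.5, 33.5 and 29.6 CPM in B1415_early, against 26.8, 31.8 and 25.4 CPM in B1415_0, and 47.8, 39.96 and 53.4 CPM in RP_early, against 74.3, 62.5 and 66.8 CPM in RP_0.

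The early libraries of LEA3 lay above the non-infested ones in B15 and below them in RP, and neither difference was called. LEA3 did not pass the filter in B15_early/B15_0. In RP_early/RP_0 its log2 fold change was -0.62 (SE 0.37, edgeR adjusted p = 0.19). All B15_early libraries (0.385, 0.437 and 0.391 CPM) lay above all B15_0 libraries (0.176, 0.200 and 0.326 CPM), a ratio of means of 1.73, and all RP_early libraries (0.671, 0.698 and 0.549 CPM) lay below all RP_0 libraries (1.14, 0.704 and 1.14 CPM). The interaction was 1.36 (SE 0.67, edgeR adjusted p = 0.25), so the test did not call this difference, and the B15 values rest on 2 to 7 counts per library. How many of all genes separated in this way was not counted.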

How the results depend on the processing

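The counts below are pairs of a member and a comparison. Late against non-infested plants, 22 pairs were called up and 1 down, early 1 up and 4 down, NIL against RP 8 up and 4 down, and interactions 0 and 0. With 1 library left out, the late counts ran from 19 to 23 up and 0 to 2 down, the early ones from 1 to 2 up and 3 to 4 down, NIL against RP from 7 to 10 up and 3 to 10 down, and interactions from 0 to 3 up and 0 to 3 down. Without the fold limit, 2 late and 6 early pairs were called down, NIL against RP had 12 up and 6 down, and 1 interaction was called up. With RP_0 as the baseline of every line 0 late pairs were called down and 4 early ones up. By unadjusted p, 2 early pairs were called up, and 2 interactions up and 3 down. DESeq2 gave 2 interactions up and 1 down, and no filter gave 1 and 1. DESeq2 did not call RAB16B and RAB16C in B15_late/B15_0 (adjusted p = 0.077 and 0.13) or RAB16C in B15_early/RP_early (0.10). In 1 fit of 36 libraries, which pools the spread of all groups, 0 early pairs were called up and 1 up and 0 down in NIL against RP. In B14_late/RP_late it gave 1.60 for RAB16A and 1.75 for LEA3, at adjusted p of 0.18 and 0.11. Without B15_late-3 and B1415_late-3, NIL against RP had 10 pairs down, and interactions 1 up and 3 down.

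The cause of these changes was not tested. Where a value was called under either setting, directions turned with RP_0 as baseline and without B1415_late-3. Directions of values that were not called also turned, as in B15_late/RP_late without B15_late-1 (RAB16A -0.92, RAB16B -0.64, RAB16C -0.34, LEA3 -0.76, WSI18 -1.01 and Os02g0669100 -0.22). With RP_0 as baseline the early values of B14 were 1.77 for RAB16A, 1.39 for RAB16B and 0.13 for LEA3, and SALT in B1415 was -1.02. Without B1415_late-3, B1415_late/RP_late was -2.76 for RAB16B, -2.82 for RAB16C, -2.45 for LEA3 and -2.97 for WSI18, and the late interaction of B1415 was -3.06 for RAB16C and -1.44 for SALT, while with B1415_late-1 or B1415_late-2 left out these 6 values reached 0.90, 0.89, 1.00, 0.70, 0.68 and 1.60. The replicate block called 20 late pairs up and ended 4 calls, which were RAB16C in B15_late/B15_0 (adjusted p = 0.058), RAB16A in B1415_late/B1415_0 (0.059), LEA3 in B14_early/B14_0 (0.10) and RAB16C in B15_early/RP_early (0.062). DESeq2 gave no adjusted p for some pairs, among them RAB16A, LEA3 and SALT in B1415_late/B1415_0, and such pairs counted as not called. Depth limits RAB16D most, and also RAB16B, RAB16C and WSI18 before the late stage. Leaving out RP_late-2 together with B15_late-3 and B1415_late-3 was chosen after seeing the data and gave 21 late pairs called up, with RAB16A and LEA3 in B1415 lost and RAB16D in B15 gained. The median over members in B1415 without that library, given with the late counts, was also added after seeing the data.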
